A study of Homo sapiens with 21 samples.

Results

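The response of HK2 knockout MV4-11 cells to ironomycin was read from 6 of the 21 libraries of the series: 3 of HK2 CRISPR knockout cells given ironomycin (also called AM5) for 24 h, and 3 of the same knockout given DMSO, the solvent. These libraries were taken by their labelled genotype, treatment and time, with no measured value used. MV4-11 is a human acute leukaemia line that mixes B-cell and myelomonocytic traits, and all cells grew in the same serum-containing medium. For comparison there were 6 libraries of PGP knockout cells and 6 of wild type cells, each split evenly between 24 h of ironomycin and DMSO, while 3 libraries of wild type cells at 6 h entered the estimate of the spread alone. Both groups of the HK2 comparison carry the same edit, so it sets drug against solvent within 1 genotype. The labels give no dose, no edited site and no time for DMSO, and do not say whether a knockout was 1 clone or a pool. Whether time in culture adds to the changes was not tested. The labels do not tell whether replicates were grown apart, and p-values then speak of the spread among these libraries alone, which may be technical.

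Hexokinase 2 phosphorylates glucose in the first step of glycolysis and docks on the outer mitochondrial membrane. Ironomycin is a derivative of the ionophore salinomycin that disturbs cellular iron, a cofactor of the respiratory chain, of iron-sulfur proteins and of many dioxygenases. Mitochondrial trouble is commonly relayed to the nucleus by the integrated stress response, in which phosphorylated eIF2-alpha favours translation of ATF4, a transcription factor of amino acid and stress genes. The series title links mitochondrial iron to a death that needs BAX or BAK.

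The label was checked on the targeted gene first. HK2 (ENSG00000159399, chromosome 2) stood at 14.7, 16.9 and 22.2 CPM (the usual depth-scaled unit of read counts) under ironomycin, against 24.8, 21.2 and 19.99 CPM in DMSO. The groups overlapped, and the log2 fold change of -0.28 ± 0.30 was not a call (edgeR quasi-likelihood test with Benjamini-Hochberg adjustment, adjusted p = 0.522). Set beside the other genotypes, HK2 averaged 22.0 ± 2.49 CPM in DMSO in the HK2 knockout, against 43.1 ± 6.24 CPM in the PGP knockout and 52.6 ± 14.7 CPM in wild type (SD, n = 3 each). Under ironomycin it averaged 17.9 ± 3.88 CPM in the HK2 knockout, against 36.4 ± 4.96 CPM in the PGP knockout and 45.0 ± 8.85 CPM in wild type. The tag was thus lower on average in HK2 knockout cells, as labelled, with no test made between genotypes, and a 3′ tag need not show an edit elsewhere in the gene. HK1, the housekeeping hexokinase, had 34.7, 43.9 and 32.4 CPM under ironomycin, against 29.9, 28 and 29.2 CPM in DMSO. Its libraries did not overlap, yet its change of 0.35 was not a call (adjusted p = 0.096), and it became one without wild type 6 h replicate 2 in the estimate of the spread (0.0311). ADPGK, an ADP-dependent sugar kinase, stood at 103 ± 22.2 CPM under ironomycin and 89.7 ± 11.0 CPM in DMSO (SD, n = 3 each) and was not called. HK3 and HKDC1 were below the filter on low counts.

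Identity markers and depth were checked next. Total counts of the 6 libraries lay between 4281779 and 5924072. Markers of the line were present, with FLT3 at 233 to 363 CPM under ironomycin and 277 to 310 CPM in DMSO, and the leukaemic homeobox gene HOXA9 at 56.0 to 68.1 CPM under ironomycin and 51.4 to 54.4 CPM in DMSO. LYZ, a monocyte enzyme, had only 34 counts over the 6 libraries. Of the markers of other cell types, HBA1, EPCAM, KRT18 and COL1A1 had 0 counts in all 6, which at 3 counts per library allows up to 0.701 CPM, CD3E had 1 and HBB had 6. KRT8, an epithelial keratin, was detected, with 115 counts under ironomycin and 97 in DMSO, as was EPOR, the erythropoietin receptor, with 89 counts under ironomycin and 107 in DMSO, and neither was called. NKG7, a granule protein of cytotoxic cells and the 1 tested gene among 9 T and NK markers in the table, rose (1.31 ± 0.19) while the summed level of that list ran from 27.3 to 29.1 CPM under ironomycin and from 9.6 to 14.8 CPM in DMSO. The part of other cell types in the results was not tested beyond these levels.

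Ironomycin changed 3418 of 11610 tested genes in HK2 knockout cells, which is 29.4%, at an adjusted p under 0.05. Of these, 1847 rose (15.9% of those tested) and 1571 fell (13.5%). At least 2-fold changes were found for 1044 genes (8.99%), 725 of them higher (6.24%) and 319 lower (2.75%). The libraries of the groups did not overlap for 45.4% of genes. The median log2 fold change of all genes was 0.03. Fold changes below are log2 values ± SE, CPM values follow replicates 1, 2 and 3, and rose or fell is written only of called genes.

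Genes of the interferon and stress responses led the rises. KLHDC7B, a kelch-domain protein, stood at 9.5, 12.9 and 10.7 CPM under ironomycin and had 0 counts in DMSO, so it was at least 57.6-fold higher when the 3 DMSO libraries together are set at 3 counts. CXCL10, a chemokine, had 185 counts under ironomycin and 3 in DMSO, a ratio of 67.5 (95% interval 22.7 to 330, counting error only). ORM1, an acute-phase plasma protein, had 19.2, 31.8 and 17.8 CPM under ironomycin, against 0.223, 1.02 and 0.192 CPM in DMSO (5.42 ± 0.58, adjusted p = 3.62e-07). Neither group came near the other for any of these 3 genes, though groups without overlap were a condition of the choice. S100P, a calcium-binding protein, had 35.6, 43.3 and 34.1 CPM under ironomycin, against 1.56, 1.19 and 1.73 CPM in DMSO (4.65 ± 0.35). IL4I1, a secreted amino acid oxidase, had 74.8, 84.9 and 119 CPM under ironomycin, against 6.25, 4.41 and 9.23 CPM in DMSO (3.81 ± 0.44). The rest of the 12 largest rises were IFI44L, IFI27, OAS1, IFIT3 and OAS2 of the interferon response, the potassium channel subunit KCNE1 (4.71 ± 0.54), and NUPR1, a stress-induced chromatin protein. IFI44L had 142 counts under ironomycin and 3 in DMSO, a ratio of 51.8 (17.4 to 254).

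Single myeloid and B-lineage genes, mitotic genes and mitochondrial mRNAs were among the largest falls. S100A8, a subunit of the neutrophil protein calprotectin, had 5.46, 4.16 and 2.88 CPM under ironomycin, against 38.2, 38.7 and 32.7 CPM in DMSO (-3.15 ± 0.35, adjusted p = 6.46e-07). IGLL1, a surrogate light chain of B-cell precursors, had 7.12, 4.99 and 5.18 CPM under ironomycin, against 22.1, 44.0 and 44.8 CPM in DMSO (-2.69 ± 0.33). MNDA, a myeloid nuclear antigen, had 3.32, 1.25 and 3.83 CPM under ironomycin, against 19, 15.3 and 12.1 CPM in DMSO (-2.45 ± 0.32). All 3 were lower in every ironomycin library than in any DMSO library, which the choice of these genes required. DMSO replicate 1 was low for IGLL1. IL7R, the interleukin receptor of lymphoid precursors, had 32.5, 29.8 and 19 CPM under ironomycin, against 117, 97.4 and 72.5 CPM in DMSO (-1.83 ± 0.28). DLEU2, a long noncoding RNA, fell by 1.94 ± 0.18, and GTSE1, a microtubule protein of late cell cycle, fell by 1.82 ± 0.13. MS4A4A, ACP3, HPDL, KIF20A, MT-ATP8 and MT-CO2 made up the rest of the 12. Other lineage markers went otherwise: of 14 tested myeloid markers 6 fell and 2 rose, and of 3 tested B-lymphoid markers 1 fell and 2 rose. In bulk RNA, fewer cells of a type and less RNA per cell cannot be told apart.

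**Figure D1:**
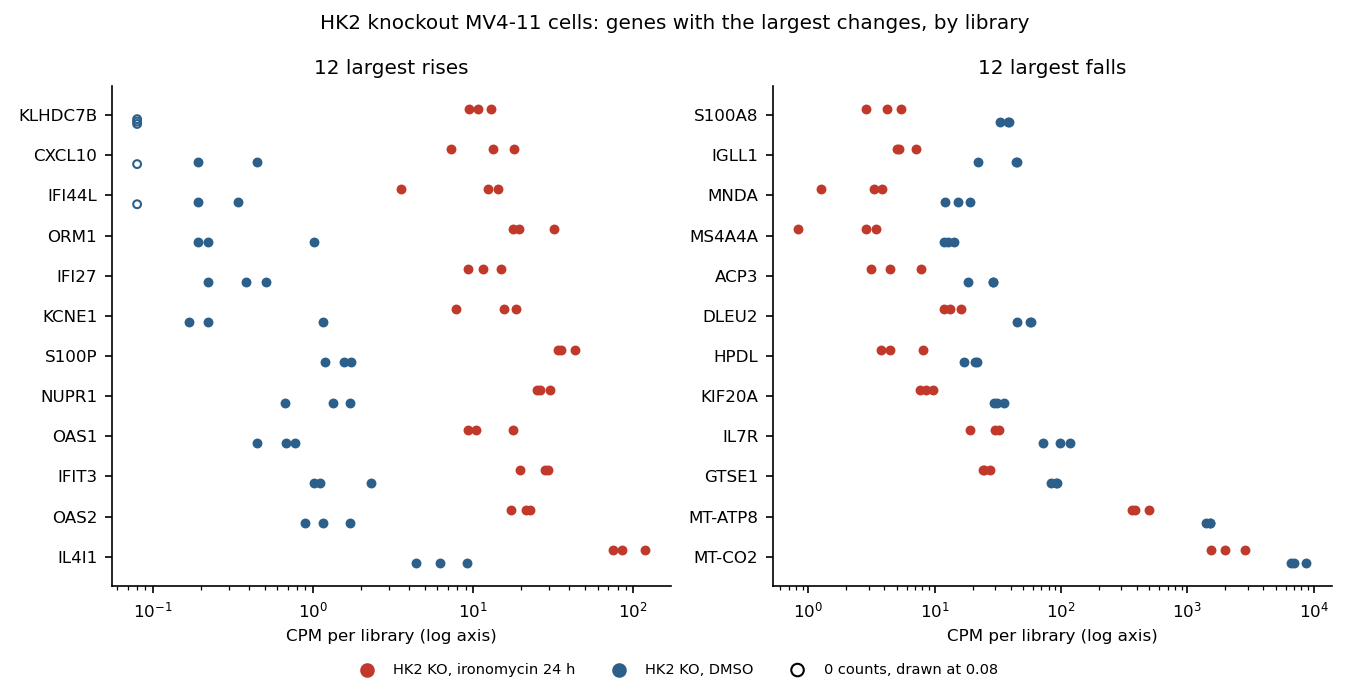
CPM in each of the 6 HK2 knockout libraries (log axis) for the 12 largest rises and 12 largest falls among called genes of at least 5 CPM whose groups did not overlap; red points are ironomycin libraries, blue points DMSO libraries, and open points 0 counts. S100P lay between 34.1 and 43.3 CPM under ironomycin and between 1.19 and 1.73 CPM in DMSO, and S100A8 lay at 5.46 CPM or less under ironomycin and at 32.7 CPM or more in DMSO.

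Genes listed for the integrated stress response rose. Members of this and the other lists were chosen with earlier results of these data known, so list shares are no test. Genes nearly absent from DMSO, such as GDF15, CXCL10 and BIRC3, passed the filter on low counts through other libraries alone. That favours rises in list counts and medians. All 26 tested members of the stress response list rose, against 15.9% of all genes tested, with a median of 1.73 (FGF21 and STC2 were below the filter). ATF4, its central transcription factor, had 686, 750 and 609 CPM under ironomycin, against 275, 286 and 288 CPM in DMSO (1.27 ± 0.18, adjusted p = 1.57e-05). Among the regulators it drives, ATF5 had 914, 978 and 907 CPM under ironomycin, against 161, 191 and 217 CPM in DMSO (2.30 ± 0.15). DDIT3, which encodes CHOP, had 19.7, 23.5 and 24.3 CPM under ironomycin, against 8.04, 6.28 and 12.3 CPM in DMSO (1.35 ± 0.21). The 3 factors were higher in each ironomycin library than in any DMSO library. TRIB3, a pseudokinase that feeds back on ATF4, had 166, 248 and 203 CPM under ironomycin, against 16.1, 16.8 and 24.8 CPM in DMSO (3.42 ± 0.24). TSC22D3, a leucine zipper protein also known as GILZ, had 111, 134 and 133 CPM under ironomycin, against 16.7, 18.7 and 18.6 CPM in DMSO (2.80 ± 0.16), the smallest adjusted p of the list (2.57e-10). PPP1R15A, the phosphatase subunit that switches the response off, rose by 1.67 ± 0.15. Of its secreted products, GDF15 had 77 counts under ironomycin and 2 in DMSO, a ratio of 42.1 (11.3 to 354), INHBE rose by 2.84 ± 0.37 and ADM2 by 2.94 ± 0.29.

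CHAC1, an enzyme that degrades glutathione, had 28.3, 76.4 and 52.7 CPM under ironomycin, against 4.47, 10.7 and 17.3 CPM in DMSO (2.26 ± 0.47). Its promoter is shown because CHAC1 is the member of smallest adjusted p whose promoter holds TGATGNAA, the composite site read by ATF4 and its C/EBP partners. The window runs from 250 bases before to 50 after the RefSeq start, on GRCh38.p14 at chr15:40953221-40953520, plus strand, and capitals mark the match, which reads on the minus strand.
CHAC1: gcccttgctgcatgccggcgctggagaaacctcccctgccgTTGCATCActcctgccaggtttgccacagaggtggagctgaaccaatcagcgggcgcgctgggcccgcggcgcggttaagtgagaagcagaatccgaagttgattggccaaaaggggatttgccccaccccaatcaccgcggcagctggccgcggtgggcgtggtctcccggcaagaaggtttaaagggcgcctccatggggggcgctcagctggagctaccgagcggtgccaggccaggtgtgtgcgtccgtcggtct
These letters, on either strand, were found in 3 of 23 list promoters at hand (13%), against 3.67% of all 27305 promoters in the table. A match is a description of the letters alone.

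Genes that supply amino acids moved in both directions. Of 20 tested genes of serine, one-carbon, proline and asparagine synthesis, 12 rose and 3 fell, against 15.9% and 13.5% of all genes (median 0.77). MTHFD2, the mitochondrial folate enzyme, had 319, 305 and 353 CPM under ironomycin, against 135, 149 and 168 CPM in DMSO (1.11 ± 0.13), and CBS, which makes cystathionine, rose by 1.68 ± 0.24. The members that fell were PYCR3, a cytosolic proline enzyme (-1.64 ± 0.18), MTHFD1, the cytosolic folate enzyme (-0.77 ± 0.10), and TYMS, which makes thymidylate (-1.29 ± 0.20). Of 12 amino acid transporters, 7 rose and 2 fell, and only 4 rose without DMSO replicate 1, DMSO replicate 2 or ironomycin replicate 2. SLC7A11, the cystine importer, had 57.9, 69.3 and 82.8 CPM under ironomycin, against 11.8, 21.2 and 21.7 CPM in DMSO (1.93 ± 0.36). SLC38A5, a glutamine and serine transporter, had 11.6, 11.4 and 10.7 CPM under ironomycin, against 41.3, 36.8 and 39.4 CPM in DMSO (-1.80 ± 0.19). The cystine importer was thus higher and the SLC38A5 transporter lower in every ironomycin library. Of 20 cytosolic tRNA synthetases, which load amino acids on tRNA, 8 rose and 2 fell, against 15.9% and 13.5% of all genes. WARS1 had 109, 138 and 117 CPM under ironomycin, against 34.6, 39.4 and 44.8 CPM in DMSO (1.61 ± 0.15), AARS1 rose by 1.27 ± 0.17 and FARSB fell by 0.69 ± 0.11. The synthetases that rose numbered 4 without DMSO replicate 1, and 5 without DMSO replicate 3 or ironomycin replicate 2, and 1 fell without DMSO replicate 2, DMSO replicate 3 or ironomycin replicate 1.

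Cholesterol genes rose. Sterol synthesis is run by SREBP transcription factors, which move to the nucleus when membrane sterol is low. Of 23 tested genes of cholesterol synthesis and uptake, 18 rose and 0 fell, against 15.9% and 13.5% of all genes (median 1.72). HMGCS1, an early synthase of the path, rose by 2.19 ± 0.23. MSMO1, a sterol oxidase, had 103, 94.9 and 121 CPM under ironomycin, against 20.5, 13.2 and 18.3 CPM in DMSO (2.62 ± 0.19, adjusted p = 1.97e-09). SQLE, squalene epoxidase, had 342, 335 and 352 CPM under ironomycin, against 103, 63.2 and 82.1 CPM in DMSO (2.05 ± 0.16). DHCR7, the last reductase of the path, had 78.6, 73.2 and 90.7 CPM under ironomycin, against 19, 10.9 and 18.1 CPM in DMSO (2.35 ± 0.19). These enzymes were 3 or more times as high in every ironomycin library as in the highest DMSO library. INSIG1, which retains SREBP in the endoplasmic reticulum, rose by 1.69 ± 0.26. ACAT2, PMVK, FDPS, GGPS1 and EBP were not called. The letters TCACNCCAC, an SREBP site, were in 0 of 17 list promoters, against 1.15% of all, and absence of these letters from this window says nothing of the factor.

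Fatty acid genes followed at lower amplitude. Of 13 tested, 10 rose and 0 fell, against 15.9% and 13.5% of all genes (median 0.60). SCD, the stearoyl-CoA desaturase, had 642, 570 and 734 CPM under ironomycin, against 295, 217 and 334 CPM in DMSO (1.20 ± 0.23), and FADS2, a desaturase of polyunsaturated chains, rose by 1.05 ± 0.13. PNPLA3, a lipid droplet hydrolase, had 22.6, 27.7 and 24.3 CPM under ironomycin, against 8.26, 5.09 and 6.54 CPM in DMSO (1.92 ± 0.21). All 3 were higher in each ironomycin library than in any DMSO library. SREBF1, which encodes an SREBP itself, stood at -0.06 ± 0.23 and was not called.

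Interferon-stimulated genes rose, and no count was found for the 8 interferon genes listed. Type I interferon acts through a complex with STAT2 and IRF9 that binds promoters of antiviral genes. Of 31 tested members of the list, 28 rose and 0 fell, against 15.9% of all genes that rose, and the median was 3.11. Members with 3 or fewer counts in DMSO, such as EPSTI1, IFIT5, ISG20 and OASL, passed the filter through other libraries alone. This raises the count and the median. STAT2 had 49.6, 64.5 and 57.5 CPM under ironomycin, against 10.9, 12.9 and 15.8 CPM in DMSO (2.11 ± 0.16, adjusted p = 6.05e-09). IRF9 rose by 2.06 ± 0.44 and IRF7, which amplifies interferon genes, by 1.51 ± 0.28. Among effectors, IFIT3, an RNA-binding antiviral protein, had 28, 19.6 and 29.3 CPM under ironomycin, against 1.12, 1.02 and 2.31 CPM in DMSO (4.09 ± 0.62). OAS1, a synthetase that activates RNase L, had 9.26, 10.4 and 17.6 CPM under ironomycin, against 0.447, 0.679 and 0.769 CPM in DMSO (4.23 ± 0.62). XAF1, a pro-apoptotic protein, had 353, 422 and 313 CPM under ironomycin, against 56.3, 80.3 and 85.5 CPM in DMSO (2.29 ± 0.18). No ironomycin library came down to the DMSO level of these genes. EPSTI1 had 73 counts under ironomycin and 1 in DMSO, a ratio of 79.9 (13.9 to 3200). IFI35 and BST2 were among those not called, and MX1, OAS3 and HERC6 were below the filter. The 8 interferon genes listed, IFNB1 and IFNA1 among them, had a summed level of 0 CPM in all 6 libraries. At 3 counts in a library the level would be up to 0.701 CPM. Other interferon genes were not looked up.

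IFI6, a mitochondrial and reticular protein of this response, had 159, 90.3 and 122 CPM under ironomycin, against 19.6, 13.1 and 17.5 CPM in DMSO (2.89 ± 0.42). Its promoter is shown as that of the member with the smallest adjusted p that holds GAAA, any 2 bases and GAAA again, the core of the interferon-stimulated response element read by the STAT and IRF complex. It lies at chr1:27672143-27672442 on the minus strand of GRCh38.p14 in RefSeq, with 3 matches in capitals.
IFI6: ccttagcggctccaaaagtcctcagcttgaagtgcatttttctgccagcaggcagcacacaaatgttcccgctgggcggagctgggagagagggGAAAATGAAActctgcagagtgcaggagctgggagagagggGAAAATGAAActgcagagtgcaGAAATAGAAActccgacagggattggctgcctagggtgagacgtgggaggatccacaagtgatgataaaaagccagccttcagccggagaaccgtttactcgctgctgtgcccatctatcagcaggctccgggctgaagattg
The motif, on either strand, was in 14 of 24 list promoters (58.3%), against 3.65% of all 27305.

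NF-kB targets rose beside them. NF-kB is held in the cytosol by NFKBIA and induces its own inhibitors. Of 12 tested genes of this list, 10 rose and 0 fell, against 15.9% and 13.5% of all genes (median 1.68). NFKBIA had 154, 149 and 187 CPM under ironomycin, against 75.2, 81.1 and 80.4 CPM in DMSO (1.05 ± 0.13). RELB, a subunit of the noncanonical arm, had 20.7, 30.2 and 31.1 CPM under ironomycin, against 7.37, 6.45 and 7.88 CPM in DMSO (1.92 ± 0.27), and NFKB2, its partner, rose by 1.82 ± 0.26. The feedback inhibitor TNFAIP3 had 39.2, 49.9 and 46.6 CPM under ironomycin, against 16.3, 14.3 and 21.9 CPM in DMSO (1.37 ± 0.20). All 4 were higher in each ironomycin library than in any DMSO library. BIRC3, an anti-apoptotic ubiquitin ligase, had 74 counts under ironomycin and 1 in DMSO, a ratio of 81.0 (14.1 to 3240). NFKB1 and IL1B were not called.

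More NRF2 targets rose than the share over all genes. NRF2 turns on genes that renew glutathione and NADPH. Of 20 tested targets, 12 rose and 0 fell, against 15.9% and 13.5% of all genes (median 0.84). NQO1, a quinone reductase, had 84.3, 105 and 130 CPM under ironomycin, against 19.9, 21.9 and 26.1 CPM in DMSO (2.23 ± 0.17, adjusted p = 5.78e-09). PGD, an NADPH-making enzyme of the pentose phosphate path, had 259, 286 and 272 CPM under ironomycin, against 133, 110 and 123 CPM in DMSO (1.16 ± 0.11). Both genes were higher in every ironomycin library, and 4 of 8 pentose phosphate genes rose and 0 fell. A fall of 2 pentose phosphate genes was called without ironomycin replicate 3. TXNRD1, a thioredoxin reductase, and PRDX1, a peroxiredoxin, stood at 0.01 ± 0.16 and -0.04 ± 0.09 and were not called.

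FTL, the ferritin light chain that stores iron, rose 2-fold, with 7939, 8364 and 8569 CPM under ironomycin, against 4341, 3817 and 4033 CPM in DMSO (1.03 ± 0.10, adjusted p = 2.06e-07). TFRC, the transferrin receptor that brings iron in, had 528, 433 and 550 CPM under ironomycin, against 502, 451 and 503 CPM in DMSO, and the groups overlapped (0.06 ± 0.16, adjusted p = 0.833). Ferritin light chain was thus separated between groups and the receptor was not. ACO1, which as an iron-free protein binds mRNAs of iron genes, rose by 0.71 ± 0.16, and PCBP2, an iron chaperone, by 0.32 ± 0.09, a call lost with no low-count filter (adjusted p = 0.125). In all, 3 of 13 iron uptake, storage and regulation genes rose and 0 fell, against 15.9% and 13.5% of all genes, while 5 rose without DMSO replicate 1 and 1 fell without DMSO replicate 2. Of 24 genes of iron-sulfur cluster assembly and mitochondrial iron, 2 rose and 5 fell, against 15.9% and 13.5% of all genes. SLC25A37, the mitochondrial iron importer, had 190, 202 and 192 CPM under ironomycin, against 125, 115 and 127 CPM in DMSO (0.67 ± 0.09), and CISD1, an iron-sulfur protein of the outer mitochondrial membrane, fell by 0.36 ± 0.10, a call lost with no low-count filter (adjusted p = 0.0528). The falls numbered 3 without DMSO replicate 1 and 1 without ironomycin replicate 2.

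Of 13 heme genes, 3 rose and 2 fell, near the 15.9% and 13.5% of all genes. ALAS1, which starts heme synthesis, had 45.1, 40.6 and 60.4 CPM under ironomycin, against 27.9, 21.4 and 25.8 CPM in DMSO (0.97 ± 0.21), and the heme transporter SLC48A1 rose by 1.27 ± 0.21. HMOX1, the inducible heme oxygenase, had 2.61, 3.95 and 3.83 CPM under ironomycin, against 0.223, 0.34 and 1.54 CPM in DMSO. Its libraries did not overlap, but the change of 2.26 ± 0.91 was not a call (adjusted p = 0.0656), and became one without DMSO replicate 3 (log2 fold change 3.46, adjusted p = 0.0442), if genes of low count were kept (0.000199) or if the fit held just the 2 HK2 knockout groups (0.00631). Without ironomycin replicate 2, 5 heme genes rose and 0 fell, and 1 fell without ironomycin replicate 3 or any DMSO replicate.

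Heat shock genes fell. Chaperones of this list fold proteins and are switched on by HSF1. Of 24 tested members, 0 rose and 19 fell, against 13.5% of all genes that fell (median -0.86). HSPH1, a nucleotide exchange factor of HSP70, had 240, 273 and 242 CPM under ironomycin, against 567, 747 and 782 CPM in DMSO (-1.47 ± 0.12, adjusted p = 1.25e-08). HSP90AA1, the inducible HSP90, had 3273, 3086 and 2905 CPM under ironomycin, against 5328, 6531 and 6508 CPM in DMSO (-0.99 ± 0.10). HSPD1, the mitochondrial chaperonin, had 452, 524 and 405 CPM under ironomycin, against 821, 935 and 870 CPM in DMSO (-0.93 ± 0.10), and its partner HSPE1 fell by 1.20 ± 0.16. The ironomycin libraries were lower without overlap for these genes. HSF1 stood at -0.07 ± 0.20 and HSPB1 at -0.28 ± 0.16, neither called. HSPA1B fell by 0.97 ± 0.23 but its reads are uncertain, since HSPA1A is almost the same sequence. LONP1, the mitochondrial matrix protease, had 97.1, 114 and 88.6 CPM under ironomycin, against 55.8, 54.2 and 59.98 CPM in DMSO (0.82 ± 0.14). It was the 1 riser among 18 mitochondrial chaperones and proteases, of which 5 fell, against 15.9% and 13.5% of all genes. Without ironomycin replicate 1, 2 of them rose.

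DNAJA1, a co-chaperone of HSP70, had 99.0, 120 and 104 CPM under ironomycin, against 219, 279 and 265 CPM in DMSO (-1.24 ± 0.15). Its promoter is shown as that of the faller of smallest adjusted p that holds the heat shock element read by HSF1 (TTC, any 2 bases, GAA, any 2 bases, TTC). It lies at chr9:33025023-33025322 on the plus strand of GRCh38.p14 in RefSeq, with the match, which reads on the minus strand, in capitals.
DNAJA1: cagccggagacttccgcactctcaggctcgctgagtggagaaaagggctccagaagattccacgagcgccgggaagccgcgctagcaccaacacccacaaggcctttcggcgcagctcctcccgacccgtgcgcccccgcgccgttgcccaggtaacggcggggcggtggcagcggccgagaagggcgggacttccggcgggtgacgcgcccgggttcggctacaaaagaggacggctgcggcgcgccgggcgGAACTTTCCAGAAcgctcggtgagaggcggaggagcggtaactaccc
The element, on either strand, was in 4 of 21 list promoters (19%), against 0.487% of all.

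Genes of mitosis fell without exception among those tested. All 35 tested members of the G2/M and mitosis list fell, against 13.5% of all genes, with a median of -1.40 and a range from -1.89 to -0.41 (FOXM1 was below the filter). CCNB1, the mitotic cyclin, had 43.4, 37.0 and 40.1 CPM under ironomycin, against 127, 131 and 120 CPM in DMSO (-1.65 ± 0.15, adjusted p = 5e-08). CDK1, its kinase, had 87.8, 71.0 and 75.9 CPM under ironomycin, against 186, 215 and 196 CPM in DMSO (-1.35 ± 0.12). UBE2C, a ubiquitin-conjugating enzyme of the anaphase-promoting complex, had 57.0, 44.9 and 51.8 CPM under ironomycin, against 134, 133 and 120 CPM in DMSO (-1.33 ± 0.12). These libraries lay far apart, with every ironomycin value under 0.5 of the lowest DMSO value. PLK1 fell by 1.76 ± 0.19, the kinesin KIF20A by 1.89 ± 0.20 and the checkpoint kinase BUB1B by 1.78 ± 0.17, while BUB3 fell least (-0.41 ± 0.09).

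NUSAP1, a spindle microtubule protein, had 104, 99.7 and 80.0 CPM under ironomycin, against 242, 271 and 242 CPM in DMSO (-1.42 ± 0.12, adjusted p = 1.26e-08). Its promoter is shown because it holds both elements known from mitotic genes, CCAAT read by NF-Y and TTTGAA read by the DREAM and MuvB complexes, and NUSAP1 has the smallest adjusted p of such members. It lies at chr15:41332631-41332930 on the plus strand of GRCh38.p14 in RefSeq, with 3 matches to CCAAT and 1 to TTTGAA, on either strand, in capitals.
NUSAP1: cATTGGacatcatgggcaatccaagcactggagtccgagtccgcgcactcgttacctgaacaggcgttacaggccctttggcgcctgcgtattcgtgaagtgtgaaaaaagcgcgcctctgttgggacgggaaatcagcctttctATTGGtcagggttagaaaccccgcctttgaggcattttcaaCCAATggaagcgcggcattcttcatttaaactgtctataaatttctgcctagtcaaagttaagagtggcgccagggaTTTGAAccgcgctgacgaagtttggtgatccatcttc
TTTGAA was in 18 of 29 list promoters (62.1%), against 15.4% of all, and CCAAT in 23 of 29 (79.3%), against 35.7%.

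Genes of DNA replication and of ribosome making fell with them. Of 44 replication and G1/S genes, 0 rose and 37 fell, against 15.9% and 13.5% of all genes (median -0.86). RRM1, the large subunit of the iron-dependent ribonucleotide reductase, had 240, 207 and 184 CPM under ironomycin, against 428, 520 and 420 CPM in DMSO (-1.12 ± 0.12). MCM7, a subunit of the replicative helicase, had 179, 154 and 144 CPM under ironomycin, against 313, 315 and 333 CPM in DMSO (-1.01 ± 0.11). Both were lower in each ironomycin library, whereas CDT1, which loads the helicase, stood at -0.01 ± 0.15. Of 33 nucleolar genes, 0 rose and 25 fell (median -0.61). UTP20, which processes ribosomal RNA, had 20.9, 26.8 and 22.8 CPM under ironomycin, against 54.9, 57.7 and 63.6 CPM in DMSO (-1.32 ± 0.12), and PA2G4, a growth regulator, fell by 0.72 ± 0.08. MYC had 98.8, 45.4 and 107 CPM under ironomycin, against 86.0, 92.9 and 95.9 CPM in DMSO, was not called (-0.13 ± 0.36, adjusted p = 0.825), and was low in ironomycin replicate 2 alone.

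mRNAs of cytosolic ribosomal proteins moved slightly up. Of 73 tested, 36 rose and 0 fell, against 15.9% and 13.5% of all genes (median 0.28), and 71 were above 0. RPL3 had 1191, 1265 and 1160 CPM under ironomycin, against 838, 874 and 874 CPM in DMSO (0.48 ± 0.08). Together they took 21.1%, 20.4% and 20.9% of counts under ironomycin and 16.2%, 16.3% and 16.4% in DMSO. The risers numbered 20 without DMSO replicate 2, 22 without ironomycin replicate 1 and 23 without ironomycin replicate 3. Ribosomal protein genes have many processed pseudogenes, so their reads may be split.

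**Figure D2:**
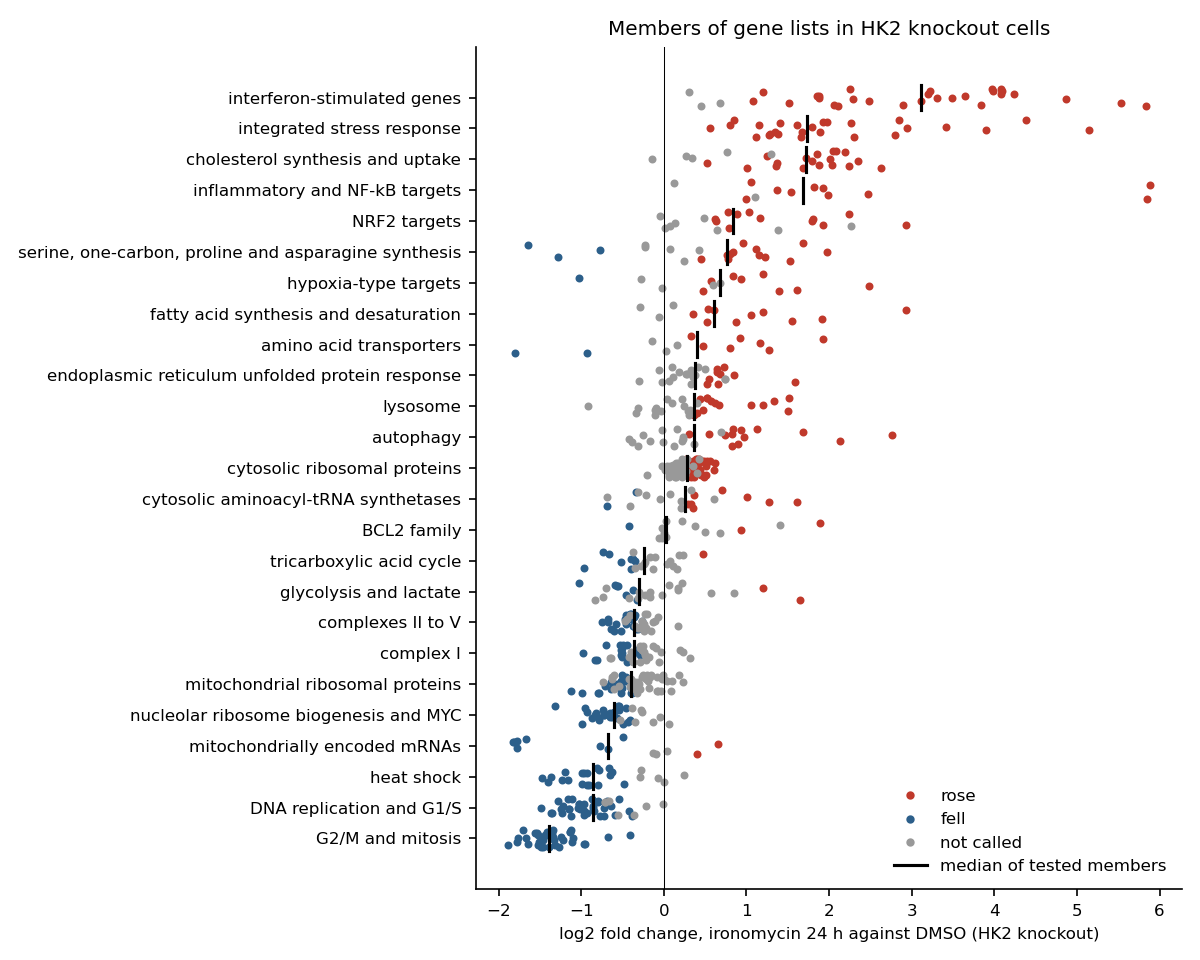
Log2 fold change of each tested member of 25 gene lists in HK2 knockout cells, ironomycin 24 h against DMSO; red points rose, blue points fell, grey points were not called, and bars mark list medians. Interferon-stimulated genes stand highest with a median of 3.11, and G2/M genes lowest with -1.40.

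Among nuclear genes of the mitochondrial ribosome and respiratory chain, a part fell, by small amounts, against 13.5% of all genes that fell. Of 71 mitochondrial ribosomal proteins, 31 fell, 40 were not called and 0 rose (median -0.40). MRPS7, of the small subunit, had 19.5, 22.1 and 22.6 CPM under ironomycin, against 42.6, 43.8 and 41.1 CPM in DMSO (-0.99 ± 0.14). Of 39 complex I genes, 0 rose and 16 fell (median -0.36), with NDUFS5 at 332, 290 and 284 CPM under ironomycin, against 557, 546 and 510 CPM in DMSO (-0.83 ± 0.11). Of 38 nuclear genes of complexes II to V, 0 rose and 20 fell (median -0.36). CYCS, cytochrome c, had 168, 151 and 186 CPM under ironomycin, against 264, 264 and 277 CPM in DMSO (-0.67 ± 0.14). These genes did not overlap between groups. In the tricarboxylic acid cycle, 1 of 23 genes rose, 8 fell and 14 were not called, MDH2 by 0.37 ± 0.10. There the falls numbered 4, 1 and 3 without DMSO replicates 1, 2 and 3, and 2 and 4 without ironomycin replicates 1 and 3, and 0 rose without any 1 of these libraries other than DMSO replicate 3.

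Transcripts of the mitochondrial chromosome moved in both directions. Of its 13 protein-coding genes, counted singly even where they share an mRNA, 8 fell and 2 rose (median -0.68). That is against 13.5% and 15.9% of all genes, and 3 were not called. MT-CO2, the copper-binding subunit of cytochrome oxidase, had 1534, 1989 and 2833 CPM under ironomycin, against 6968, 6599 and 8732 CPM in DMSO (-1.81 ± 0.24). MT-ATP6, the proton channel of ATP synthase, had 2005, 2172 and 2897 CPM under ironomycin, against 8064, 7478 and 8743 CPM in DMSO (-1.78 ± 0.21). MT-ND5, of complex I, had 2338, 2200 and 2487 CPM under ironomycin, against 1741, 1328 and 1398 CPM in DMSO (0.65 ± 0.14). MT-CO2 and MT-ATP6 were thus lower, and MT-ND5 higher, in every ironomycin library. MT-CO1 (0.03 ± 0.14), MT-ND1 (-0.14 ± 0.18) and MT-ND4L (-0.10 ± 0.13) overlapped between groups. The falls numbered 5 without ironomycin replicate 1, and 1 protein-coding gene rose without ironomycin replicate 1, ironomycin replicate 3 or any DMSO replicate.

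Most tested transfer RNAs of this chromosome, which lie between the longer genes of the same precursor, rose while most of its protein-coding genes fell. Of 22 in the table, 7 were tested, of which 5 rose and 1 fell, against 15.9% and 13.5% of all genes. MT-TY was not called. A 3′ tag in a transfer RNA gene need not come from the mature transfer RNA, and its origin was not tested. MT-TL1, for leucine, had 841, 1049 and 787 CPM under ironomycin, against 93.8, 98.3 and 95.2 CPM in DMSO (3.22 ± 0.23, adjusted p = 2.76e-09). MT-TF, for phenylalanine, had 2736, 1989 and 1517 CPM under ironomycin, against 485, 315 and 338 CPM in DMSO (2.45 ± 0.22). Both were over 3 times as high in each ironomycin library as in any DMSO library. The 2 ribosomal RNAs, MT-RNR1 (0.08 ± 0.12) and MT-RNR2 (-0.17 ± 0.18), were not called. As a share of all counts, the mRNAs took 3.09% ± 0.666 under ironomycin and 6.37% ± 0.669 in DMSO, and the transfer RNAs took 0.306% ± 0.0582 under ironomycin and 0.0586% ± 0.0096 in DMSO (SD, n = 3 each). MALAT1, a nuclear RNA, took 0.565% ± 0.102 under ironomycin and 0.341% ± 0.0287 in DMSO. Its part in these shifts was not tested. Both strands are transcribed here and no strand setting is stated, which leaves genes of the light strand uncertain: MT-TP (-1.11 ± 0.14), MT-ND6 (0.40 ± 0.14), MT-TY (-0.58 ± 0.25) and MT-TC (0.95 ± 0.32).

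**Figure D3:**
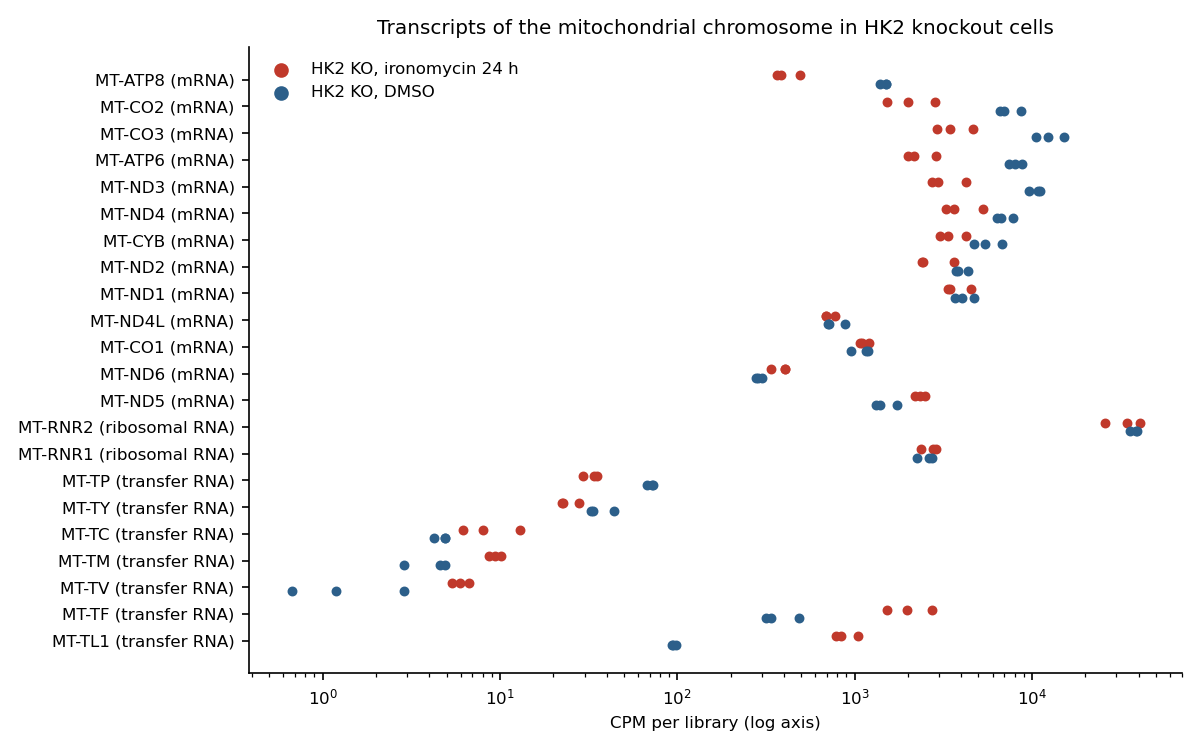
CPM (log axis) of transcripts of the mitochondrial chromosome in each HK2 knockout library; red points are ironomycin, blue points DMSO. MT-CO2 lay between 1534 and 2833 CPM under ironomycin and at 6599 CPM or more in DMSO, while MT-TL1 lay between 787 and 1049 CPM under ironomycin and at 98.3 CPM or less in DMSO.

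Organelle genes rose in part, against 15.9% of all genes that rose and 13.5% that fell. For the endoplasmic reticulum unfolded protein response, 9 of 27 rose and 0 fell. SEC24D, a vesicle coat protein, had 53.2, 61.4 and 65.8 CPM under ironomycin, against 17.6, 20.7 and 21.7 CPM in DMSO (1.58 ± 0.13), and the chaperone HSPA5 rose by 0.66 ± 0.17. HSP90B1, PDIA4 and CALR were not called. Of 29 lysosome genes, 14 rose and 0 fell. CTSD, a lysosomal protease, had 338, 337 and 348 CPM under ironomycin, against 127, 111 and 121 CPM in DMSO (1.51 ± 0.16), and NEU1, a sialidase, had 67.7, 70.1 and 87.4 CPM under ironomycin, against 25.0, 27.3 and 27.3 CPM in DMSO (1.499 ± 0.15). Of 27 autophagy genes, 13 rose and 0 fell. MAP1LC3B, the membrane marker of autophagosomes, had 62.4, 62.2 and 67.1 CPM under ironomycin, against 24.6, 29.2 and 33.8 CPM in DMSO (1.13 ± 0.14). TFEB and TFE3, transcription factors of lysosome genes, rose by 0.90 ± 0.28 and 0.83 ± 0.23. The genes given by library in this paragraph were higher in every ironomycin library.

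Glycolysis genes did not move as 1 group. Of 25 tested, 2 rose and 7 fell, against 15.9% and 13.5% of all genes (median -0.30). LDHA, which makes lactate, had 389, 335 and 380 CPM under ironomycin, against 726, 720 and 806 CPM in DMSO (-1.03 ± 0.17). SLC2A3, a high-affinity glucose transporter, had 38.9, 42.0 and 47.7 CPM under ironomycin, against 12.7, 14.3 and 14 CPM in DMSO (1.65 ± 0.15), while the transporter SLC2A1 stood at -0.02 ± 0.16. LDHA was thus lower and SLC2A3 higher in every ironomycin library. PGK1 and TPI1, later enzymes of the path, fell by 0.59 ± 0.12 and 0.55 ± 0.11, and GAPDH (-0.42 ± 0.29) and PKM (0.22 ± 0.16) were not called. Only 1 rose without DMSO replicate 3 or ironomycin replicate 3. Among targets of the hypoxia factor, whose hydroxylases need iron, 8 of 13 rose and 1 fell, against 15.9% and 13.5% of all genes. VEGFA, the vascular growth factor, had 66.2, 80.9 and 94.1 CPM under ironomycin, against 10.0, 16.3 and 16.5 CPM in DMSO (2.48 ± 0.27), NDRG1 rose by 1.40 ± 0.17, and the 1 that fell was LDHA. Of 9 metallothioneins and zinc genes, 0 rose and 2 fell, against 15.9% and 13.5% of all genes. MT1G fell by 0.46 ± 0.13 and MT1E by 0.55 ± 0.16, and near-identical copies make them uncertain.

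The death effectors named in the series title were not called. BAX had 19.5, 19.4 and 19.7 CPM under ironomycin, against 18.1, 20.5 and 18.6 CPM in DMSO (0.03 ± 0.19, adjusted p = 0.93). BAK1 had 13.3, 14.6 and 10.9 CPM under ironomycin, against 11.2, 13.9 and 13.5 CPM in DMSO (adjusted p = 0.996). The groups overlapped for both, and the signs of both changed when single libraries were left out. The anti-apoptotic BCL2 (0.23 ± 0.12) and MCL1 (-0.02 ± 0.16) were not called either. Among the proteins that trigger BAX and BAK, BMF had 17.1, 22.3 and 29 CPM under ironomycin, against 4.69, 7.13 and 6.54 CPM in DMSO (1.88 ± 0.32). BBC3, also called PUMA, had 140, 146 and 144 CPM under ironomycin, against 76.8, 73.5 and 74.6 CPM in DMSO (0.93 ± 0.14). BID fell by 0.42 ± 0.13, PMAIP1 (0.50 ± 0.22) and BCL2L11 (0.37 ± 0.27) were not called, and in all 2 of 15 family members rose and 1 fell, no more than the 15.9% and 13.5% of all genes. Of 24 p53 targets, 4 rose and 4 fell, near the 15.9% and 13.5% of all genes: SESN2 rose (1.65 ± 0.19), MDM2 fell (-0.46 ± 0.12), and CDKN1A (0.28 ± 0.15) was not called. The p53 targets that rose numbered 2 without DMSO replicate 3 or ironomycin replicate 2.

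Lineage genes changed one by one. Of 14 tested myeloid markers, 2 rose and 6 fell, against 15.9% and 13.5% of all genes, and 1 rose without ironomycin replicate 3. The granule enzyme MPO had 4.99, 5.83 and 5.94 CPM under ironomycin, against 10.0, 11.7 and 14.2 CPM in DMSO (-1.10 ± 0.26), and ELANE and PRTN3, granule proteases, fell by 0.77 ± 0.23 and 0.67 ± 0.21. CD33 (0.11 ± 0.10) and SPI1 (0.29 ± 0.21), a myeloid master factor, were not called. Of 3 tested B-lymphoid genes, PAX5, the B-cell identity factor, had 5.22, 4.58 and 4.98 CPM under ironomycin, against 1.12, 0.679 and 1.15 CPM in DMSO (2.32 ± 0.48) and rose in all 3 libraries while IGLL1 fell. EBF1 had 17 counts under ironomycin and 3 in DMSO, a ratio of 6.2 (1.79 to 33.0), and lost its call without DMSO replicate 1 (adjusted p = 0.074) or 3 (0.0567), which left 1 B-lymphoid gene higher. Of 10 KMT2A fusion targets, 1 rose and 0 fell, below the 15.9% and 13.5% of all genes. The riser was PBX3 (0.39 ± 0.10), 0 rose without DMSO replicate 1, and HOXA9 and MEIS1 were not called. Of 8 MHC class II genes, 2 rose and 0 fell, against 15.9% and 13.5% of all genes. CD74 rose by 0.74 ± 0.19, and 1 of the 8 rose without DMSO replicate 3.

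The response was set beside that of PGP knockout and wild type cells, which share no library with it. Of the 3418 genes called in HK2 knockout cells, 3390 had the same sign in wild type cells (99.2%) and 3365 in PGP knockout cells (98.4%). The same call was made for 2573 in wild type, 2530 in the PGP knockout and 2272 in both, 587 were called in neither, and 0 were called in the opposite direction in either. Over all 11610 tested genes, 3465 were called in wild type (29.8%) and 3661 in the PGP knockout (31.5%). Across all genes, log2 fold changes correlated with those of wild type at r = 0.833 and with those of the PGP knockout at r = 0.817, with genes not being independent replicates. The test of the difference in response found 0 genes against wild type and 0 against the PGP knockout after adjustment (edgeR quasi-likelihood test), and DESeq2 also found 0 in each. At an unadjusted p under 0.05 there were 267 genes against wild type (2.3%) and 456 against the PGP knockout (3.93%). With no low-count filter the counts were 17 and 30. A gene called in the HK2 knockout and not in wild type is not shown to differ. On simulated data the test against wild type recovered 15 of 50 genes set to differ 2-fold, so many such differences could be missed.

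**Figure D4:**
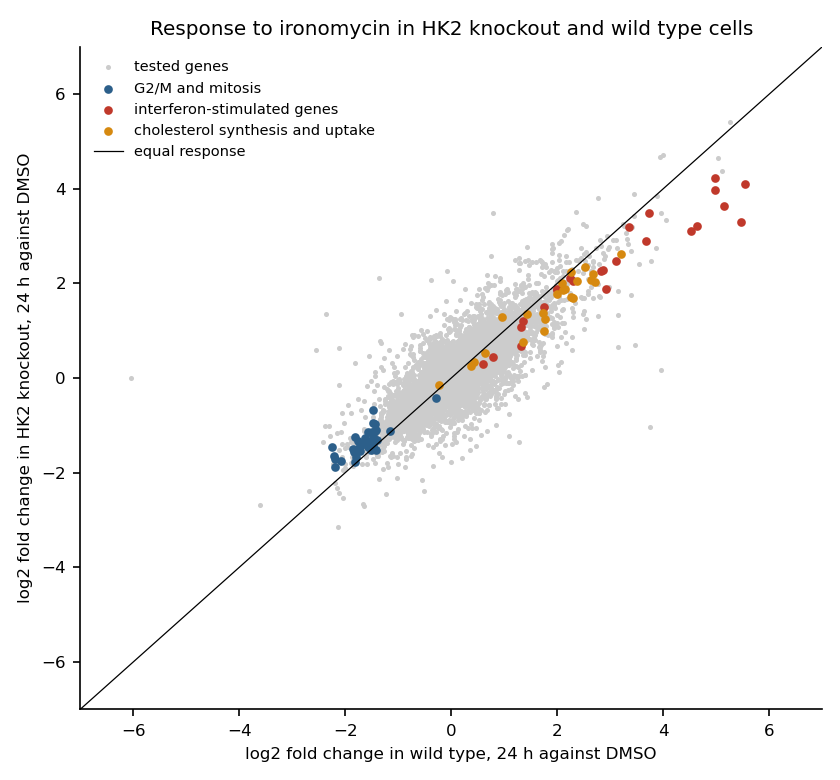
Log2 fold change after 24 h of ironomycin in HK2 knockout cells (y axis) against that in wild type cells (x axis) for the 11549 genes with more than 3 counts over each of the 4 groups; the line marks equal responses. G2/M genes in blue lie mostly above the line on the falling side, and interferon-stimulated genes in red and cholesterol genes in orange mostly below it on the rising side.

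Intervals of the difference in response were wide beside its size for most leading genes. The response of ATF5 in HK2 knockout cells exceeded that of wild type cells by 0.01 (95% interval -0.42 to 0.44), that of TSC22D3 differed by -0.03 (-0.50 to 0.44) and that of TRIB3 by -0.04 (-0.71 to 0.63). For FTL the difference was -0.02 (-0.32 to 0.29) and for HSPH1 0.06 (-0.29 to 0.41). For HK2 itself it was -0.05 (-0.89 to 0.78), an interval that spans a change of over 1.5-fold either way. For BAX it was 0.48 (-0.08 to 1.04) against wild type and 0.03 (-0.53 to 0.59) against the PGP knockout. PNPLA3 had a response of 1.92 ± 0.21 in the HK2 knockout, against 2.90 ± 0.24 in the PGP knockout and 2.97 ± 0.23 in wild type. HK2 knockout minus wild type, this was -1.05 (-1.72 to -0.39, unadjusted p = 0.00324), and HK2 knockout minus PGP knockout it was -0.98 (unadjusted p = 0.0064), neither a call after adjustment. For MNDA, HK2 knockout minus wild type, it was -1.21 (-2.12 to -0.30, unadjusted p = 0.0111), also not a call.

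Some lists leaned to a smaller and some to a larger response than in wild type, although no gene was called. The 3 lists drawn here, all leaning to a smaller response, were picked among 41 after their values were seen, and get no test. Cytosolic ribosomal proteins leaned to a larger rise, with only 2 of 73 lower in the HK2 knockout (median 0.28, against 0.18 in wild type). So did NF-kB targets, with 4 of 12 lower (median 1.68, against 1.44 in wild type). The fall of G2/M genes was smaller in HK2 knockout cells for 32 of 35 members, with a median difference of 0.27, and the difference for CCNB1 was 0.57 (0.13 to 1.01, unadjusted p = 0.0138). Of all 31 interferon-stimulated genes, 29 had a lower log2 fold change in the HK2 knockout. So had all 24 of those with more than 3 counts over each group (median difference of the 24, -0.58), and the difference for XAF1 was -0.58 (-1.11 to -0.06). Wild type ironomycin libraries were widely spread for some members, with IFI6 at 290 ± 151 CPM and HERC5 at 31.9 ± 12.8 CPM. STAT2 was tighter, at 64.1 ± 4.04 CPM (SD, n = 3 each). Members may move together from library to library, which was not tested, so they are not separate results. Of 23 cholesterol genes 21 were lower (median difference -0.27), and the difference for LSS was -0.68 (-1.21 to -0.15). Over all 11610 genes, 47.7% of differences were below 0 and 52.2% above. Over all genes that fell in the HK2 knockout, 47.5% fell less than in wild type, and over all that rose, 37.4% rose less, shares that the choice of genes by their HK2 knockout response can shift. Against the PGP knockout the lean was not shared by every list, with 21 of 35 G2/M genes falling less in the HK2 knockout, and lower log2 fold changes there for 12 of 23 cholesterol genes and 27 of all 31 interferon-stimulated genes. At an unadjusted p under 0.05 against wild type stood 8 of the 35 G2/M genes, 1 of the 31 interferon-stimulated genes and 3 of the 23 cholesterol genes.

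**Figure D5:**
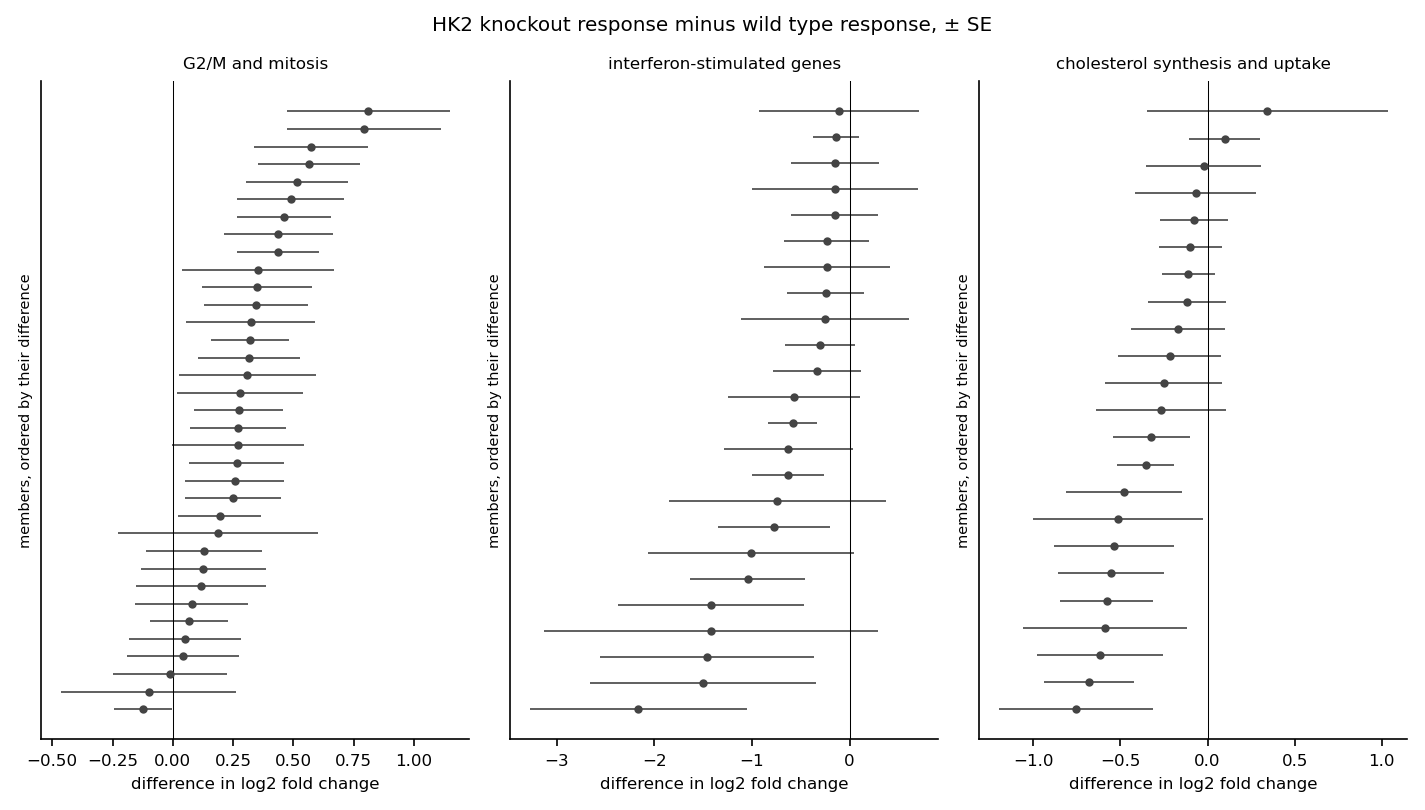
Difference in log2 fold change after ironomycin, HK2 knockout response minus wild type response, on the x axis, with members of 3 lists ordered by it down the y axis (points ± SE, 3 libraries per group); 7 sparse interferon-stimulated genes (at most 3 counts in some group) are left out. For 32 of 35 G2/M genes the point lies above 0 and for 21 of 23 cholesterol genes below 0, with many error bars reaching 0.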

How the data were processed

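RNA of MV4-11 cells was extracted with Qiagen RNeasy and made into Lexogen QuantSeq 3′ libraries, per the labels' protocols. The deposited table holds raw read counts per Ensembl gene; the submitters' processing notes name bcl2fastq 2.20.0.422, HISAT2, HTSeq and build hg19, and no strand setting. Of 54042 genes in it, 51854 matched a symbol, and the 2188 others held 8 counts. Total counts ran from 3829274 to 6069264 over the 21 libraries.

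All libraries entered 1 fit with a mean per group in edgeR 4.0.16 (R 4.3.3, limma 3.58.1): TMM scaling, a filter on low counts (minimum count 10, minimum total 15), which left 11610 genes, the quasi-likelihood test, and Benjamini-Hochberg adjustment over all of them at 0.05. CPM used TMM-scaled library sizes, and the SE was the log2 fold change over the root of the F statistic. A difference in response was the difference between log2 fold changes, tested in the same fit. Intervals and floors of counts cover counting error only. Tables and figures used Python 3.11.15, pandas 2.3.3, numpy 2.4.6, scipy 1.17.1 and matplotlib 3.10.9. The tests were checked on simulated data, with 50 genes changed at each fold. Of genes changed 1.5, 2, 4 and 8-fold, the test of drug against solvent recovered 12, 32, 43 and 50, with 6 false calls. The test of the difference in response from wild type recovered 4, 15, 36 and 49, with 4 false calls.

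Genes were named by rule: the hexokinases, the 12 largest rises and 12 largest falls of at least 5 CPM without overlap, up to 6 called members per list by adjusted p, and 10 genes whatever their result. Other genes, such as uncalled members, were chosen after their values were seen. Members and lists were chosen with earlier results of these data known. Alternatives were RLE scaling, no low-count filter, DESeq2 1.42.0, a fit of the compared groups alone, a replicate block and each replicate left out. Some members of the lists are not reported here by name.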

Additional observations from a re-analysis of the deposited data

How the results depend on the processing

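The count of 3418 changed genes was 3425 with RLE scaling, 3229 with no low-count filter, 3615 with the compared groups alone, 3368 with DESeq2, and 2663 to 2994 with 1 HK2 knockout replicate left out (1358 to 1576 higher, 1294 to 1418 lower). Without wild type 6 h replicate 2, which stands apart from its group, it was 3930, an alternative chosen after seeing the data. Deviations of ironomycin and DMSO libraries from their group means were correlated within each genotype. For the same replicate number, r was 0.04, -0.039 and 0.121 in the HK2 knockout. It was 0.166, 0.05 and 0.236 in wild type, and 0.243, 0.164 and 0.247 in the PGP knockout. Between different numbers, r ran from -0.128 to 0.087, from -0.213 to 0.056 and from -0.19 to -0.024. Same-number values lay above these for all replicates of the PGP knockout, replicates 1 and 3 of wild type and replicate 3 of the HK2 knockout. Whether libraries of 1 number belong together was not tested further. The fit with the block found 0 genes whose response differed against either genotype. In the HK2 knockout the fit with a replicate block called 3771 genes, 1990 higher and 1781 lower. Genes whose response differed numbered 0 under each alternative, with 1 exception: no low-count filter gave 17 against wild type and 30 against the PGP knockout, and the cause was not tested. Of 211 named genes tested, 199 were called, all 199 kept their direction, and 180 kept their call under every alternative. Signs changed only for uncalled genes near 0. BAK1 was at -0.008 with RLE scaling, -0.023 with no low-count filter, -0.004 with the compared groups alone, -0.009 with DESeq2 and -0.001 without wild type 6 h replicate 2. With 1 replicate left out, BAK1 ran from -0.101 to 0.088, BAX from -0.022 to 0.072, TFRC from -0.039 to 0.152, MCL1 from -0.172 to 0.047 and MYC from -0.378 to 0.169. Depth limits genes below the filter, HK3 and HKDC1 among them.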
